A study of Rattus norvegicus with 24 samples.

Results

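The genes described here encode the nuclear subunits of the mitochondrial electron transport chain and of the ATP synthase, with the few assembly factors that share their symbols. Members were chosen by symbol among probe sets annotated with a single gene: symbols that begin with Nduf, Sdha, Sdhb, Sdhc, Sdhd, Uqcr, Cox4, Cox5, Cox6, Cox7, Cox8, Cyc1, Cycs or Atp5, with the brightest probe set kept for each gene. This gave 89 genes of the 10411 genes with such a probe set. They were sorted into complexes by symbol alone. This gave 36 genes of complex I, 5 complex I assembly factors, 4 genes of complex II and 4 complex II assembly factors. Complexes III, IV and V had 8, 16 and 16 genes. Ndufa4 and Ndufa4l2 are counted with complex I by this rule, and their names alone do not establish that they belong to it. Of the complex IV entries, Cox6c-ps1 is a pseudogene. Another 9 probe sets carried a member symbol together with another symbol and were not members, among them both probe sets of Cycs (cytochrome c).

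The hearts came from male Wistar-Kyoto (WKY) rats, 12 to 14 weeks old when exposure began, that were instilled intratracheally once a week and killed 48 hr after the last instillation. There were 6 groups of 4 rats. Controls received saline, and MSH rats received volcanic ash from Mount St. Helens without water-soluble zinc. PM-HD was a suspension of oil combustion particles with water-soluble zinc at 14.5 µg/mg and nickel at 3 µg/mg. In the study PM-LD was the same particle sample at a lower dose, and its label gives 7.25 and 1.5 µg/mg. PM-L was the saline-soluble leachate of these particles without solids. The last group received zinc sulfate, labelled 14.5 µg/mL zinc. A treatment note gives a different zinc sulfate concentration, so this figure is only as the group label states it. The study names 8 weeks of exposure for the saline, MSH, PM-HD and zinc sulfate arrays, and the sources used here do not give the weeks for PM-LD and PM-L. RNA of each heart was hybridized to an Affymetrix Rat 230A array, which measures short probes near the 3′ end of each transcript. The values are MAS5 signals, in arbitrary brightness units, and differences are taken between arrays for the same gene. Percentiles of signal only describe how bright a probe set was.

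As background, complex I takes electrons from NADH and complex II takes them from succinate, and both pass them to ubiquinone. Complex III hands them on to cytochrome c, complex IV reduces oxygen, and complexes I, III and IV pump protons across the inner mitochondrial membrane. Complex V lets the protons back and makes ATP, of which the beating heart uses large amounts. Core subunits of complexes I, III, IV and V are encoded in mitochondrial DNA and none of those is among the genes described here, whereas complex II is encoded wholly in the nucleus.

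The arrays had been scaled to a common brightness (trimmed mean signal 500.1 to 500.2). Of the 89 members, 71 lay at or above the 95th percentile of signal among all 15866 tested probe sets. The study reports that the ratio of large to small ribosomal RNA reached a stated minimum in all its samples. On the arrays, a control ratio used to judge RNA integrity differed between hearts. The array carries separate probe sets for the 3′ and the 5′ end of Gapdh, a glycolytic enzyme used as a control, and the 3′ signal divided by the 5′ signal rises when transcripts are shortened. This ratio ran from 1.11 to 5.62, and 9 arrays exceeded 3: 1 of saline, 2 of MSH, 2 of PM-HD, 1 of PM-LD, 2 of PM-L and 1 of zinc sulfate. Medians of the ratio were lowest with zinc sulfate (1.5) and PM-LD (1.56), followed by saline (1.87) and PM-L (2.33), and highest with MSH (2.76) and PM-HD (3.03). The exposed groups were not separated from saline (exact permutation test over arrays, two-sided, unadjusted p = 0.714 for zinc sulfate, 0.914 for PM-L, 0.6 for both PM-LD and PM-HD and 0.657 for MSH, with 0.0286 the smallest possible). Ventricular markers such as Myh6, Myl2 and Tnni3 were among the brightest probe sets on the arrays. Atrial markers (mean log2 level of Nppa, Myl4, Myl7 and Sln) ranged from 7.81 to 13.16 although the ventricle with septum was sampled, with 6 arrays above 11, and their correlation with the mean level of the members was 0.17 over the 24 arrays.

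In none of the comparisons did any of the 89 genes meet the study's criteria for a changed gene, an unadjusted p below 0.05 with a log2 fold change above 0.32 or below -0.42 (limma's moderated test across all probe sets). In MSH against saline 0 members passed, with 2.71% of all genes passing as the background. In PM-HD 0 members passed (background 3.06%), in PM-LD 0 (3.55%), in PM-L 0 (3.87%) and in zinc sulfate 0 (3.68%), each against saline. In zinc sulfate against MSH, which sets soluble zinc against a particle without it, 0 members passed and 5.46% of all genes did. The comparisons share their control rats, so they are not independent of each other. Without the fold limits, 0, 0, 1, 2, 1 and 0 members had p below 0.05 in these 6 comparisons in the same order. Of all genes 2.93%, 3.32%, 4%, 4.35%, 4.11% and 6% did. No member passed after Benjamini-Hochberg adjustment over all probe sets, and neither did any in an F test over the 6 groups (0 of 89, background 0%).

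The members' levels lay slightly below saline as a set. Their median log2 fold change was -0.04 for MSH, -0.09 for PM-HD, -0.05 for PM-LD, -0.07 for PM-L and -0.07 for zinc sulfate against saline, and -0.07 for zinc sulfate against MSH, while the medians over all genes lay between -0.02 and 0.00. Of the 89 members, 27 were above saline with zinc sulfate, 22 with PM-L, 29 with PM-LD, 30 with PM-HD and 38 with MSH. The direction for zinc sulfate rested on the scaling. With arrays centered on their medians in place of quantile normalization, the members' median became 0.15 against saline and 0.20 against MSH, with all genes at 0.04 and 0.06. It also rested on single rats: without zinc sulfate rat 3 the median was 0.04 against saline and 0.05 against MSH, and without PM-HD rat 4 that of PM-HD was 0.03. For 19, 22, 25, 22, 19 and 21 members the 95% confidence interval of the fold change lay wholly within the fold limits of the 6 comparisons. For the remaining members the interval reached past a limit, so these data do not exclude a change of that size.

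**Figure D1:**
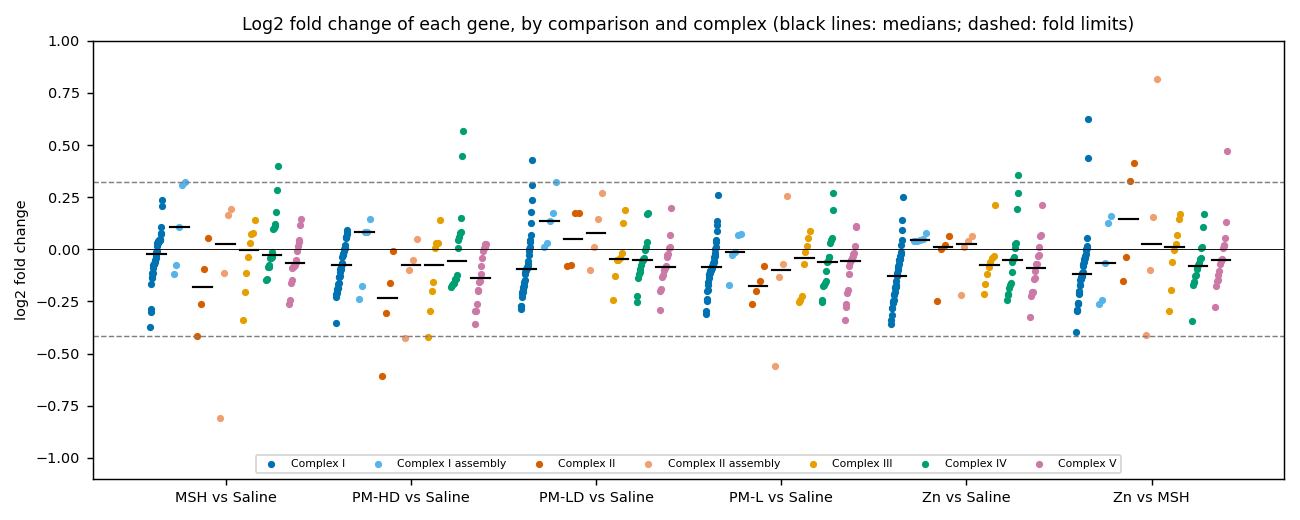
Log2 fold change (vertical axis) of each of the 89 genes in 6 comparisons, grouped and colored by complex, with black lines for medians and dashed lines at the fold limits, 0.32 and -0.42 on the log2 scale. Most points lie within the dashed lines, and no gene outside them had p below 0.05.

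Among the 5 complexes the widest shifts were those of complex II in MSH, PM-HD and PM-L rats. Complex II, succinate dehydrogenase, had a median log2 fold change of -0.18 in MSH, -0.235 in PM-HD, 0.05 in PM-LD, -0.18 in PM-L and 0.01 in zinc sulfate rats against saline. Complex I ranged from -0.02 (MSH) to -0.13 (zinc sulfate), complex III from -0.005 (MSH) to -0.07 (zinc sulfate), complex IV from -0.025 (MSH) to -0.059 (PM-L), and complex V from -0.06 (PM-L) to -0.14 (PM-HD). These shifts stand beside the spread between rats of a group: the mean log2 level of the complex II genes was 13.05 ± 0.35 (SD, n = 4) in saline, 12.87 ± 0.165 in MSH, 12.78 ± 0.58 in PM-HD, 13.10 ± 0.56 in PM-LD, 12.87 ± 0.49 in PM-L and 13.01 ± 0.70 in zinc sulfate rats. All 6 groups overlapped for each of the 5 complexes.

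**Figure D2:**
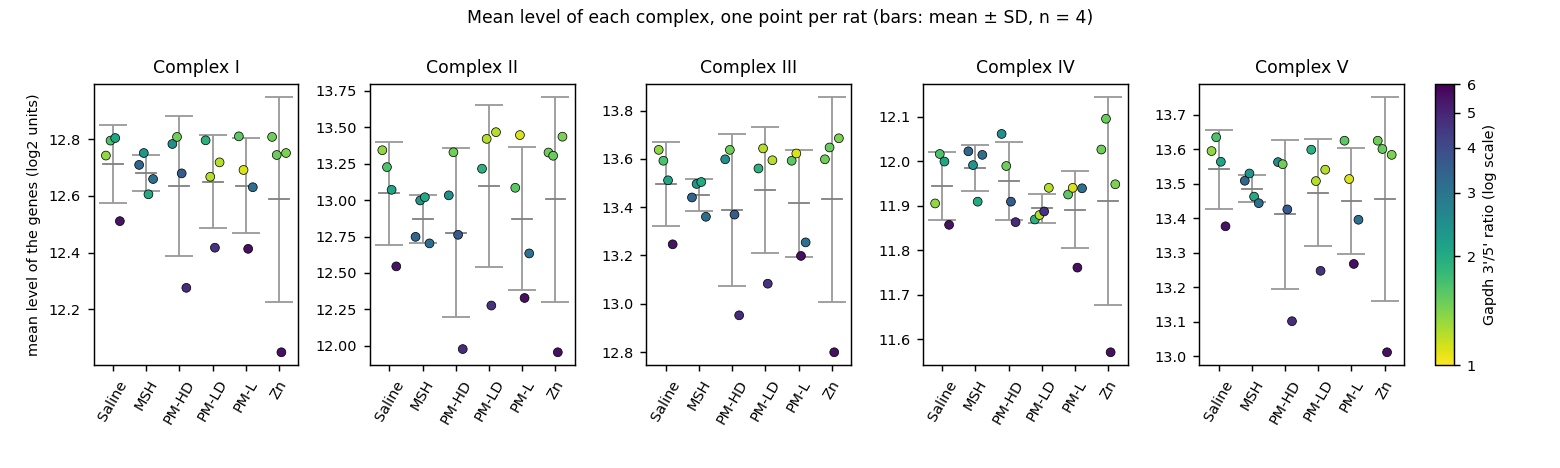
Mean log2 level of the genes of each complex (vertical axes differ between panels) in the 6 groups, with 1 point per rat colored by the Gapdh 3′/5′ ratio of its array and bars for the mean and SD of 4 rats. In most groups the lowest point is the array with the darkest color, that is the highest ratio.

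The subunits are described next in the order of electron flow, each with the signal of every rat for the genes on which the results turn. In complex I, Ndufa7, an accessory subunit, had the smallest p of any member in the F test over the 6 groups (F = 2.34, adjusted p = 1, limma). Ndufa7 signals were 7141, 6640.4, 6514 and 5284 in saline rats and 5719.7, 6032, 5549.5 and 5670.5 in MSH rats. Ndufa7 was measured at 6869.9, 6604, 5756 and 5182 with PM-HD and 6339.8, 5184, 5380.4 and 4964 with PM-LD. Ndufa7 read 5474, 4932, 5075 and 5279 with PM-L and 6196, 6357, 4346 and 5861 with zinc sulfate. In these signals saline rats 1 to 3 were above every PM-LD, PM-L and zinc sulfate rat, and saline rat 4, whose Gapdh ratio was 5.48, lay within the range of those groups. After quantile normalization saline rats lay at 12.559 to 12.858 log2 units and zinc sulfate rats at 12.22 to 12.434. PM-LD (up to 12.603) and PM-L rats (up to 12.563) overlapped with saline. The zinc sulfate rats did not, and the share of all genes without such overlap was not computed. Against saline, Ndufa7 differed by -0.31 ± 0.13 in PM-L (log2, standard error), by -0.29 ± 0.13 in PM-LD and by -0.34 ± 0.13 in zinc sulfate rats, each with an unadjusted p below 0.05 and an adjusted p of 0.999 (limma). None of these differences reached the lower fold limit. Ndufb5 and Ndufs4, the complex I genes next in the F test, likewise had an adjusted p of 1. Ndufb5, a membrane-arm subunit, was lowest in PM-LD (9557 ± 454 SD) and highest in MSH rats (12936 ± 984), and its difference from saline was -0.18 ± 0.14 and 0.23 ± 0.14 in these groups. Ndufs4, an accessory subunit of the electron-input module, stood at 1359.9 ± 142 with PM-L and 1019 ± 78 with zinc sulfate, against 1134 ± 112 with saline.

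Ndufs1, the large iron-sulfur subunit, varied far more among rats of a group than between groups. Ndufs1 signals were 4079.8, 3277, 2321 and 1425 in saline rats and 1729, 2377, 2206 and 1975 in MSH rats. Ndufs1 had values of 2585, 4837, 2069 and 1204 with PM-HD and 3438, 6098, 1408 and 5754 with PM-LD. Ndufs1 gave 3924, 5769, 1244 and 1940.5 with PM-L and 3997, 4511, 920 and 5597 with zinc sulfate. The MSH rats lay close together, whereas the other groups held both low and high rats, and in all 6 groups the lowest rat was the one whose array had the highest Gapdh ratio. Its difference from saline was at most 0.43 ± 0.53 (PM-LD, adjusted p = 0.999, limma). Ndufb8, a subunit of the membrane arm, spread even wider.

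Ndufb8 signals were 668, 708, 795 and 307 in saline rats and 278, 588, 396 and 647 in MSH rats. Ndufb8 reached 600.5, 997, 381 and 187 with PM-HD and 684, 1252, 272 and 1213 with PM-LD. Ndufb8 amounted to 736, 1392, 218 and 394 with PM-L and 966, 1083, 165 and 1326 with zinc sulfate. Zinc sulfate rat 3 was the lowest of all and PM-L rat 2 the highest, 8.44 times apart, and again the lowest rat of each of the 6 groups had the highest Gapdh ratio. Its largest difference was 0.62 ± 0.68 (zinc sulfate against MSH, adjusted p = 0.898, limma). Ndufv1, which binds NADH, gave 10916 ± 2642 (SD) in saline and 13437 ± 5546 in zinc sulfate rats, with the other groups between 10114 and 11136.

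In complex II, Sdha, the flavoprotein that oxidizes succinate, showed a similar pattern. Sdha signals were 9403, 10334, 9831 and 4414 in saline rats and 7857, 10086, 8731 and 7242 in MSH rats. Sdha stood at 9354, 11411, 8940 and 4064 with PM-HD and 11140, 11031, 5347 and 10357 with PM-LD. Sdha came to 9405, 10629, 4497 and 6668 with PM-L and 11758, 11031, 4101 and 11654 with zinc sulfate. In each group other than MSH, 1 rat was at 5347 or less, and its array had the highest Gapdh ratio of the group. Group means differed by at most 0.17 ± 0.32 on the log2 scale from saline (PM-LD, adjusted p = 0.999, limma).

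In complex III, Uqcrfs1, the Rieske iron-sulfur protein, was lowest in the rat with the highest ratio in 5 of the 6 groups, MSH being the exception. Uqcrfs1 signals were 14148, 16949, 12816 and 6404 in saline rats and 9092, 10714, 12184 and 7838 in MSH rats. Uqcrfs1 measured 13460, 15801, 8277 and 3889.8 with PM-HD and 15888, 16040, 4269.9 and 18750 with PM-LD. Uqcrfs1 showed 16405, 17041, 4822 and 7629 with PM-L and 18266, 17987, 3502 and 20926 with zinc sulfate. Its lowest and highest values were both in zinc sulfate rats, 5.97 times apart. The differences from saline ran from -0.42 ± 0.51 (PM-HD) to -0.02 ± 0.51 (PM-LD), none of which passed. Cyc1, the cytochrome c1 heme protein, gave 9536 ± 2174 in saline, 9882 ± 3126 in PM-HD and 13759 ± 6791 (SD) in zinc sulfate rats.

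Complex IV had the narrowest range of mean level over the 24 rats among the 5 complexes, from 11.57 to 12.10 log2 units. Cox4i1, the regulatory subunit that is present in most tissues, varied little. Cox4i1 signals were 15237, 22472, 24242 and 21284 in saline rats and 23144, 24563, 21168 and 23752 in MSH rats. Cox4i1 scored 24326, 18292, 25361 and 19371 with PM-HD and 23974, 18508, 19547 and 20133 with PM-LD. Cox4i1 registered 24166, 17919, 17815 and 22758 with PM-L and 25922, 24390, 19968 and 28891 with zinc sulfate. The groups overlapped throughout, and the differences from saline were between -0.04 ± 0.12 (PM-L) and 0.10 ± 0.12 (MSH) on the log2 scale. Its counterpart Cox4i2, best known from lung and from low oxygen, ranged from 318 to 789.6 over all rats, with group means from 460.1 (zinc sulfate) to 597 (PM-HD).

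The heart and skeletal muscle forms of complex IV, Cox6a2, Cox7a1 and Cox8b, passed in no comparison, and neither did their counterparts of other tissues, Cox6a1 and Cox8a. Cox8b varied little. Cox8b signals were 14003, 19940, 19578 and 21273 in saline rats and 23343, 20108, 18948 and 21074 in MSH rats. Cox8b held at 20953, 18713, 23292 and 20595 with PM-HD and 23134, 13830, 19298 and 18381 with PM-LD. Cox8b lay at 21303, 15787, 19715 and 21832 with PM-L and 21008, 21310, 22036 and 23105 with zinc sulfate. The lowest signals were those of PM-LD rat 2 and saline rat 1, the zinc sulfate rats lay close together, and in no group was the rat with the highest Gapdh ratio the lowest. Cox6a2 had group means from 17688 (PM-HD) to 21094 (zinc sulfate) and its partner form Cox6a1 from 3188 (MSH) to 3572 (zinc sulfate). The order of these means differed from that after quantile normalization, where Cox6a2 was lowest with zinc sulfate (-0.21 log2 units against saline, with the other groups from -0.17 to -0.08) and Cox6a1 differed from saline by -0.06 to 0.01. Cox8a gave 7169.8 ± 1143 with PM-L and 8559 ± 1200 (SD) with saline.

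Cox7a1 was unlike Cox8b and Cox4i1 in that its level varied widely within each group. Cox7a1 signals were 801, 2717, 1933 and 1096 in saline rats and 1878, 1054, 1536 and 3051 in MSH rats. Cox7a1 varied as 1110, 1318, 3108 and 3136 with PM-HD and 667, 2075, 2881 and 1854 with PM-LD. Cox7a1 was 1182, 2296, 2888 and 1143 with PM-L and 1693, 3383, 838 and 899 with zinc sulfate. Both low and high rats occurred in all 6 groups, and its slope on the Gapdh ratio (described further on) was 0.17 ± 0.21 with an adjusted p of 0.603 (limma). Its within-group SD was 0.81 log2 units, against a median of 0.24 over the members. The related Cox7a2l, which helps to join complexes III and IV, had the narrow range of 2339 to 3642. Cox5a was measured by a dim probe set of its own (857 ± 262 in saline and 1101 ± 166 in MSH rats), and a brighter probe set of Cox5a carried another symbol too.

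In complex V, Atp5f1b, the catalytic beta subunit, had an unadjusted p below 0.05 in the comparison of PM-L with saline. Atp5f1b signals were 21098, 31505, 31570 and 29769 in saline rats and 35024, 32352, 27728 and 30788 in MSH rats. Atp5f1b yielded 28849, 27089, 32202 and 23276 with PM-HD and 33892, 25628, 27539 and 28241 with PM-LD. Atp5f1b displayed 28152, 24225, 21445 and 25108 with PM-L and 32225, 31384, 25336 and 35621 with zinc sulfate. In these signals all 4 PM-L rats lay below 3 of the 4 saline rats, and saline rat 1 was lower than all 4 PM-L rats. After quantile normalization, the scale of the test, saline rats lay at 14.825 to 15.064 log2 units and PM-L rats at 14.529 to 14.805. These ranges did not overlap, and the share of all genes without overlap was not computed. The difference was -0.26 ± 0.12 (log2, adjusted p = 0.999, limma), short of the fold limit. Its partner Atp5f1a, the alpha subunit, varied more, from 7901 to 31099, both in zinc sulfate rats, and differed from saline by -0.28 ± 0.28 in PM-L. Atp5if1, the inhibitor that stops the enzyme from breaking down ATP, gave 1499 ± 316 in PM-HD and 1762 ± 152 (SD) in saline rats, a log2 difference of -0.26 ± 0.15 (adjusted p = 1, limma).

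**Figure D3:**
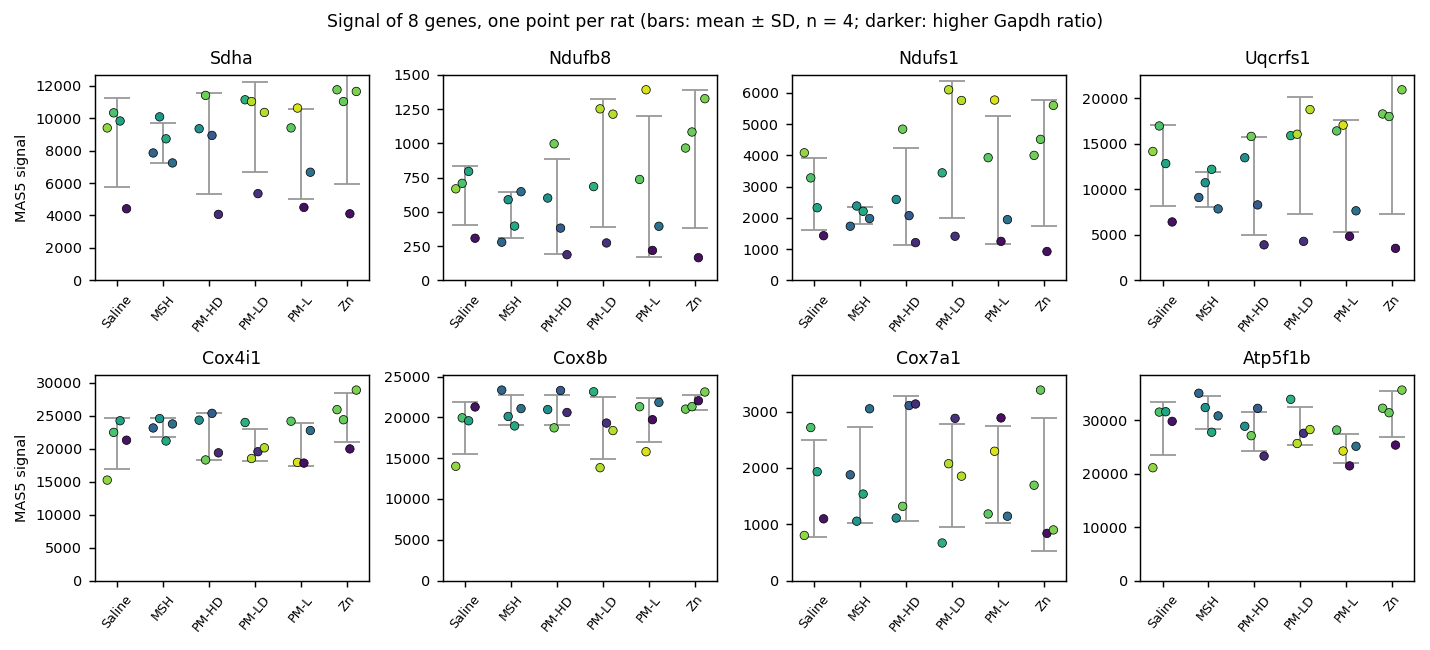
MAS5 signal (vertical axes from 0) of 8 genes in the 6 groups, 1 point per rat colored by Gapdh 3′/5′ ratio (darker is higher), with bars for the mean and SD. Sdha, Ndufb8, Ndufs1 and Uqcrfs1 have their low points on dark arrays, whereas Cox4i1, Cox8b, Cox7a1 and Atp5f1b do not order by color.

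The relation to the Gapdh ratio was then fitted within groups, as a slope in log2 units per doubling of the ratio with the 6 group means as terms. With adjusted p below 0.05, 51 of the 89 members (57.3%) fell as the ratio rose, against 19.3% of all genes. Another 7 members (7.87%) rose, against 19.4% of all genes, and 31 passed in neither direction. The median slope was -0.16 over the members and 0.02 over all genes. The split depended on scaling: with median centering 78 members (87.6%) fell and 0 rose, while 26% of all genes fell and 14.1% rose. The relation rested on the wide span of ratios as well. On the 15 arrays with a ratio of 3 or less, 6 members (6.74%) fell and 0 rose, against 2.42% of all genes falling. The median slope of the members was 0.075 on these arrays, of opposite sign to that over all arrays, while that of complex II was -0.41.

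The complexes differed in how steeply they followed the ratio. All 4 complex II genes fell, with a median slope of -0.57, and so did all 4 complex II assembly factors (-0.52). In complex III 5 of 8 fell and 2 rose (median -0.21), in complex V 11 of 16 fell and 2 rose (-0.15), in complex IV 7 of 16 fell and 1 rose (-0.125), in complex I 16 of 36 fell and 2 rose (-0.10), and of the complex I assembly factors 4 of 5 fell (-0.21). The difference in slope between complexes was not tested. Over the 24 arrays, the correlation of a complex's mean level with the log2 ratio was -0.95 for complex II, -0.89 for complex III, -0.81 for complex V, -0.75 for complex I and -0.51 for complex IV (Pearson; Spearman -0.97, -0.91, -0.69, -0.59 and -0.36). Without the pair of arrays farthest from the median ratio, PM-L rat 3 and zinc sulfate rat 3, these became -0.94, -0.89, -0.77, -0.69 and -0.25. These are descriptions over arrays that share the normalization.

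**Figure D4:**
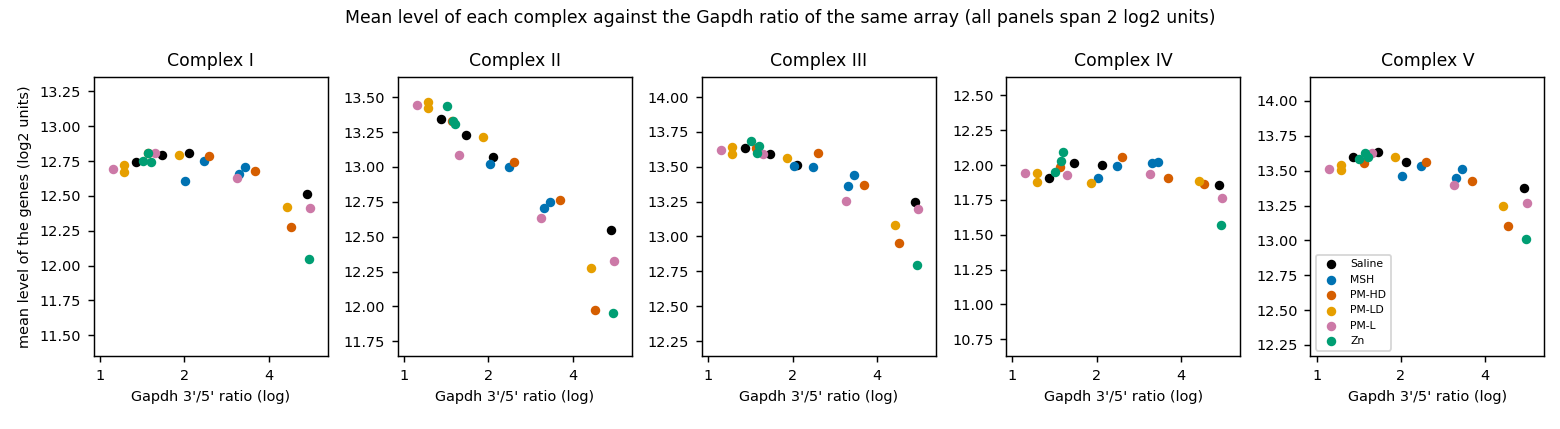
Mean log2 level of the genes of each complex (vertical axes, each spanning 2 log2 units) against the Gapdh 3′/5′ ratio of the same array (horizontal, log scale), 1 point per rat colored by group. Complex II falls over the whole range of ratios, complexes I and V mainly on the arrays of highest ratio, and complex IV little.

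Single genes of the same complex parted widely. The steepest falls were those of Ndufb8, at -1.13 ± 0.10 per doubling (standard error; adjusted p = 4.44e-08, limma), Ndufb6, a membrane-arm subunit, at -1.0 ± 0.08 (9.37e-09), and Sdhaf3, an assembly factor of complex II, at -0.96 ± 0.09 (1.01e-07). Ndufs1 followed at -0.92 ± 0.06, Uqcrfs1 at -0.88 ± 0.06, Sdha at -0.52 ± 0.06, Cyc1 at -0.49 ± 0.06, and Ndufv1 and Atp5f1a at -0.41 ± 0.05 and -0.41 ± 0.06. Atp5f1b had a slope of -0.12 ± 0.03. Ndufs4 (0.00 ± 0.05), Cox4i1 (0.04 ± 0.04), Ndufa7 (0.04 ± 0.05) and Atp5if1 (0.02 ± 0.05) passed in neither direction. The slope was thus not shared by all subunits of a complex: within complex I it ran from -1.13 to 0.17.

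The genes that rose did so by little. Cox8b rose by 0.18 ± 0.04 per doubling (adjusted p = 0.00101, limma), Uqcr11, a small complex III subunit, by 0.17 ± 0.04 (0.00382), and Ndufa1, an accessory subunit of complex I, by 0.17 ± 0.04 (0.000976). Under median centering their slopes were -0.02, -0.07 and -0.03, so their direction depended on the scaling. The count of 7 became 4 without PM-LD rat 2, PM-LD rat 3 or PM-L rat 2. All 7 genes that rose lay between the 97.88 and 99.77 percentile of signal. Genes that fell spanned the 51.78 to 99.91 percentile, and over the 89 members the correlation of slope with signal percentile was 0.03.

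**Figure D5:**
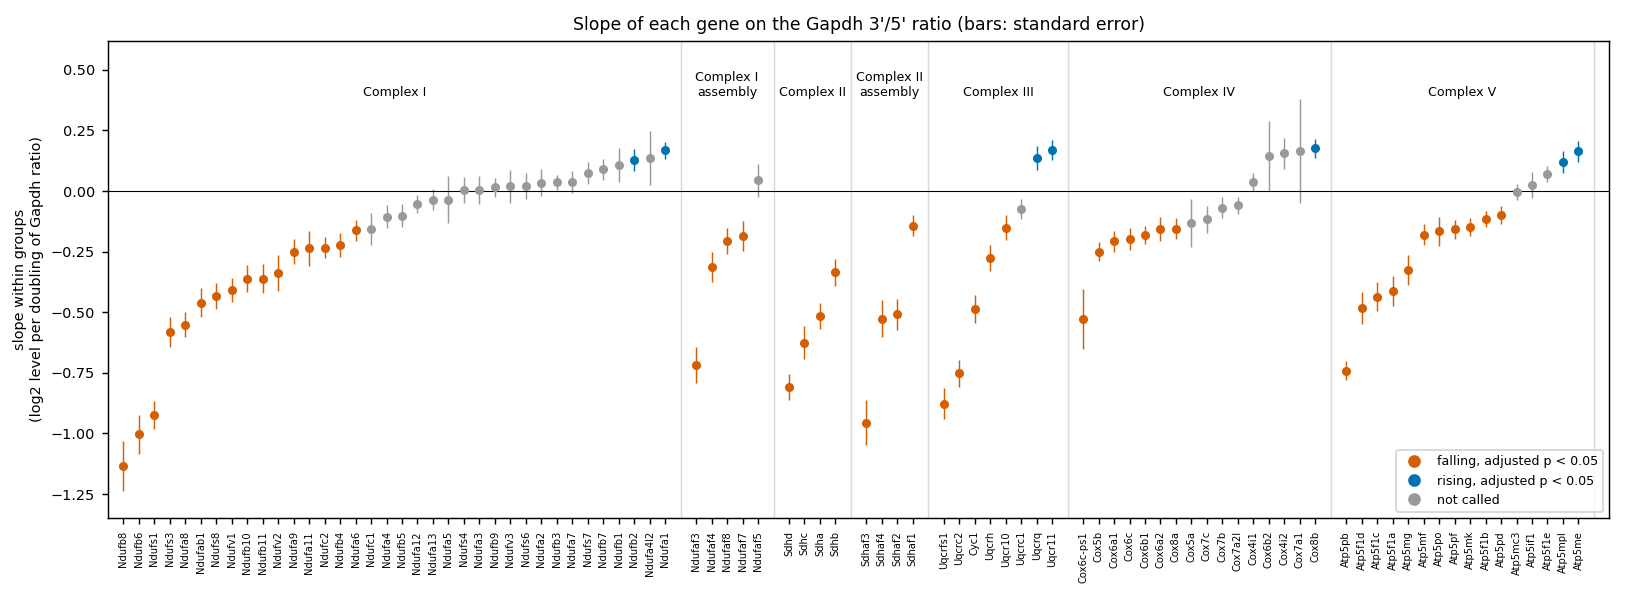
Slope of each gene on the Gapdh 3′/5′ ratio within groups (vertical axis, log2 units per doubling, bars for the standard error), ordered within complexes. All genes of complex II and of its assembly factors lie below 0, and complexes I, III and V run from steep falls to small rises.

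Second probe sets of members did not all fall. That of Sdhd, the membrane anchor of complex II, fell at -0.52 ± 0.06 beside -0.81 ± 0.05 for the brighter probe set. The dim second probe set of Sdhaf2 fell at -0.89 ± 0.20. Those of Atp5me (-0.09 ± 0.12), Atp5if1 (-0.15 ± 0.20 and -0.08 ± 0.27) and Ndufv3 (-0.03 ± 0.09), all dim, passed in neither direction. The brighter probe set of Atp5me had a slope of 0.16. Sdhd, Sdhaf2, Atp5me and Ndufv3 are named here after their values were seen. Of the 9 probe sets that carry another symbol too, both of Cycs fell, at -0.27 ± 0.04 and -0.88 ± 0.06. Those of Atp5mc1 (-0.47 ± 0.06) and Atp5mc2 (-0.43 ± 0.10) also fell. A bright probe set of Cox5a and another symbol fell at -0.45 ± 0.05, beside -0.13 ± 0.10 for the dim probe set that Cox5a has alone. Those of Cox7a2 (-0.08 ± 0.04), Uqcrb (0.01 ± 0.05), Ndufs5 (-0.06 ± 0.04) and Ndufa10 (0.09 ± 0.06) passed in neither direction. Adding the ratio to the fit narrowed the spread between rats of a group. The median within-group SD of the members went from 0.24 to 0.18 log2 units, and for complex II it went from 0.53 to 0.19. Over all genes it went from 0.362 to 0.275, so the narrowing was not particular to the members.

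Markers of some other cell types moved with the same ratio, with which 19.4% of all genes rose and 19.3% fell. All 5 endothelial markers on the array (Pecam1, Kdr, Vwf, Cav1 and Egfl7) rose with it. So did 6 of 7 fibroblast, 4 of 6 smooth muscle and pericyte and 2 of 3 red blood cell markers. Of 8 leukocyte markers 1 rose, and of 7 skeletal muscle markers 2 rose and 2 fell. Of 5 adipocyte and 4 atrial markers 0 rose, and 1 of each list fell. The correlation of the mean endothelial level with the log2 ratio was 0.93, and with the mean level of the members it was -0.82. That mean spanned 10.86 to 12.51 with zinc sulfate, 10.59 to 11.93 with PM-L, 10.51 to 11.90 with PM-LD, 10.91 to 12.26 with PM-HD, 11.44 to 11.70 with MSH and 10.97 to 11.84 with saline. Of 9 ventricular markers 4 fell and 1 rose, and their mean had a correlation of 0.01 with the ratio. With the endothelial mean as a further term, 4 members fell and 0 rose with the ratio (1.21% of all genes fell). The median slope of the members was then -0.12, beside -0.16 without that term, and that of complex II was -0.35. With the ratio of beta-actin, another control measured at its ends, in place of Gapdh, 30 members (33.7%) fell and 3 rose, against 11.2% of all genes falling. Both of these fits were chosen after the data were seen. Whether shortened RNA or the share of cell types accounts for the slopes was not tested, and in bulk heart RNA fewer cells of a type and less RNA per cell cannot be told apart.

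The exposure comparisons were repeated with the Gapdh ratio as a covariate. By the same criteria 2 members passed in MSH against saline (background 3.73%): Ndufaf4, a complex I assembly factor, differed by 0.40 ± 0.16 and Sdhaf3 by -0.58 ± 0.24 on the log2 scale (adjusted p = 0.912 for both, limma). In PM-L 1 passed (5.41%), Sdhaf3 at -0.50 ± 0.24 (adjusted p = 0.69), and in zinc sulfate against MSH 1 passed (6.48%), Sdhaf2, which attaches the flavin to Sdha, at -0.60 ± 0.16 (adjusted p = 0.265). In PM-HD (4.25%), PM-LD (4.59%) and zinc sulfate (4.98%) against saline 0 members passed. None passed after adjustment over all probe sets, and the shares were no larger than those of all genes. Ndufaf4 and Sdhaf2 are named after their values were seen. The members' median moved to 0.02 in MSH, -0.01 in PM-HD, -0.10 in PM-LD, -0.07 in PM-L and -0.10 in zinc sulfate rats against saline, and to -0.13 in zinc sulfate against MSH.

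The comparisons were also made on the 15 arrays with a ratio of 3 or less, 2 to 3 rats a group. Against saline, 1 member passed in MSH (background 3.93%), 1 in PM-HD (3.78%), 0 in PM-LD (5.57%), 1 in PM-L (4.65%) and 1 in zinc sulfate (5.49%). These were Uqcrfs1, Cox6b2, Ndufa7 and Cyc1, of which Uqcrfs1 (-0.42 ± 0.18) and Ndufa7 (-0.48 ± 0.16) were lower and Cox6b2 (0.88 ± 0.40) and Cyc1 (0.41 ± 0.18) higher. Cox6b2, a testis form, was among the dimmest probe sets, at the 4.41 percentile of signal. In zinc sulfate against MSH 9 members passed, all higher with zinc sulfate, and 11.8% of all genes passed. They were Ndufb8 (1.2 ± 0.32), Sdhaf3 (1.05 ± 0.43), Ndufs1 (0.85 ± 0.31), Ndufb6 (0.67 ± 0.18), Sdhd, Atp5pb, Sdhc, Uqcrfs1 and Atp5mg (of these, Sdhd, Atp5pb, Sdhc and Atp5mg are named after their values were seen, as is Cox6b2), and none passed after adjustment (lowest adjusted p = 0.345, limma). All 9 fell with the Gapdh ratio over the 24 arrays, and the ratios of the groups still differed: 1.42 to 1.52 on the 3 zinc sulfate arrays and 2.02 and 2.36 on the 2 MSH arrays. The part of the ratio in these differences was not tested.

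Other genes of mitochondrial energy supply were read in the same fits, where 2.71% to 3.87% of all genes passed against saline and 19.3% fell and 19.4% rose with the ratio. Against saline, 0 of 12 citric acid cycle genes passed in any exposed group, and 11 of 12 fell with the Gapdh ratio (median slope -0.61). Of 14 carriers and other inner membrane proteins, 1 passed in PM-L (Ucp3, lower), and 11 fell and 1 rose with the ratio (median -0.47). Of 13 electron donors and ubiquinone enzymes 0 passed against saline and 9 fell (-0.46), of 28 assembly and copper factors 21 fell (-0.28), and of 9 regulators of mitochondrial biogenesis 0 passed, 4 fell and 1 rose (-0.28). Among the assembly factors, 2 passed in MSH against saline, Timmdc1 different by 0.42 ± 0.20 and Foxred1 different by -0.54 ± 0.22, with adjusted p of 1 for both (limma), and 1 passed in each of PM-HD (Cox14), PM-LD (Nubpl) and PM-L (Tmem70).

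Promoter sequences were at hand in RefSeq (assembly GRCr8) for 80 of the 89 members, as 250 bases before and 50 after the annotated start. These promoters were searched on both strands for motifs known from nuclear genes of the respiratory chain. The GABP/ETS core CCGGAAG was found in 24 of the 80 (30%) and in 9.22% of all 27457 promoters, and the NRF1 core GCGCATGCG in 7 (8.75%) and 1.66%. The YY1 site AAGATGGCG was found in 11 (13.8%) and 1.93%, and the estrogen related receptor site TCAAGGTCA in 2 (2.5%) and 0.412%. Among the members that fell, 17 of 45 held the GABP/ETS core (37.8%), and among the others 7 of 35 (20%). The NRF1 core was held by 4 of 45 and 3 of 35. The YY1 site was held by 6 of 45 and 5 of 35, and the estrogen related receptor site by 1 of 45 and 1 of 35. A link between motifs and slopes was not tested. A match is a description of the letters and not a site of binding.

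The 120 bases before the start are shown for Sdhd, Sdhaf3 and Uqcrc2, which fell, and for Atp5me, a small complex V subunit that rose, to set the promoters of opposite slopes side by side. Sdhd, Uqcrc2 and Atp5me are shown after their values were seen. Their slopes were -0.81 ± 0.05, -0.96 ± 0.09, -0.75 ± 0.06 and 0.16 ± 0.04, the last from the brighter Atp5me probe set. The call of Atp5me as rising depended on the scaling, since 0 members rose under median centering. Its dim second probe set had a slope of -0.09 ± 0.12. They are read 5′ to 3′ in the direction of the gene, from chr8:59850642-59850761 on the minus strand for Sdhd, chr4:36066843-36066962 on the plus strand for Sdhaf3, chr1:184599120-184599239 on the plus strand for Uqcrc2 and chr14:1464740-1464859 on the plus strand for Atp5me. Capitals mark a GABP/ETS core on either strand, and in Atp5me also the NRF1 core, which matches on both strands 1 base apart.
Sdhd: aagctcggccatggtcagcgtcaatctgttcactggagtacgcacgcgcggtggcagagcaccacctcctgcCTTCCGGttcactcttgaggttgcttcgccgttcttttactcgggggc
Sdhaf3: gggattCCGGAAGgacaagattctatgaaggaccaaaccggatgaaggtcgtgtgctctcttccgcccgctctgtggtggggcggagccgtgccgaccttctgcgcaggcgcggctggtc
Uqcrc2: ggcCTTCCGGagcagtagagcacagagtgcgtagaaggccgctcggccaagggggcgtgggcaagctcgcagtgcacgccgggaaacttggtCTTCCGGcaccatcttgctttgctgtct
Atp5me: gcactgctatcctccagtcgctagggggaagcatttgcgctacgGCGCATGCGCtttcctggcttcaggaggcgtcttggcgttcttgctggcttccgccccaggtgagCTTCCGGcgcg
The 4 promoters were picked by hand and do not represent the members, most of which held no GABP/ETS core in this window.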

How the data were processed

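The authors deposited MAS5 signal intensity values, 1 per probe set and array, scaled by them to a common trimmed mean (upstream tool per the labels: MAS5). The study's own tests used RMA values of the same arrays, which were not analysed here. Depth has no counterpart on arrays, and the 4 rats a group, with 1 array each, limit the precision. The p-values measure the spread between these rats. From the deposited intensities, log2(signal + 16) was taken and quantile normalized over 24 arrays, and tests excluded 57 control probe sets. Linear models with the 6 groups were fitted across 15866 probe sets (limma 3.58.1, R 4.3.3) and adjusted by Benjamini-Hochberg over all of them. Groups came from the sample labels. Changed genes had p under 0.05 and a log2 fold change above 0.32 or below -0.42, as in the study. The slope fit (adjusted p under 0.05) added the log2 Gapdh 3′/5′ ratio. Scripts were tested on simulated data. Fold changes are on the log2(signal + 16) scale and understate changes of dim genes.

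Genes were named from the platform annotation, and 95 probe sets with a single symbol belonged to the 89 members. Genes were named in the text if they were among the 4 lowest p past the thresholds of a comparison, the 5 lowest p of the F test, the 3 steepest slopes in each direction, the tissue forms of complex IV, or a fixed set of core subunits. The members and lists were chosen with earlier results of these data known. Alternatives were the offset, centering, brightness, prior, arrays, fold limits, probe sets per gene, replicate number and covariates. The arrays had pairwise correlations from 0.8946 to 0.9676, so no arrays held identical values.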

Additional observations from a re-analysis of the deposited data

Results flagged for a closer look

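Within groups of 4 rats, 204 sets of values (mean levels of the complexes, levels of the named genes and the Gapdh ratio) were screened for a rat far from the other 3 by Dixon's test, which flags about 1 in 20 groups by chance. It flagged 30, of which 1 is the Gapdh ratio itself. In 27 of the other 29 the rat was the one with the highest Gapdh ratio of its group. The sets are nested, since the complexes and single genes were read from the same arrays, so these flags are not independent of each other. Some of the genes, among them the flagged Ndufb8 and Ndufb6, were named for their slope on the Gapdh ratio. For those genes the match with the rat of highest ratio was partly built in by that choice.

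Zinc sulfate rat 3 accounted for most. Its Gapdh ratio was 5.575, and the other zinc sulfate rats had 1.425 to 1.518. Its mean log2 level was 11.86 for all members, 12.05 for complex I, 8.956 for complex I assembly factors, 11.96 for complex II, 8.446 for complex II assembly factors, 12.8 for complex III and 13.01 for complex V, each lower than in the other rats of the group. For complex II these others lay between 13.3 and 13.44. Single genes at log2 levels apart from the group in this rat were Ndufs4 (9.823), Ndufb8 (7.378), Ndufb6 (9.54), Cox6a2 (13.56), Ndufs1 (9.845), Ndufv1 (12.51), Sdha (12.13), Uqcrfs1 (11.93) and Atp5f1a (13.1), all low, and Cox8b (14.4), which was high.

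PM-LD rat 3, with a ratio of 4.64, was low for all members (12.19), complex III (13.08), Ndufb6 (10.63), Uqcrfs1 (12.28) and Atp5f1a (13.61). Saline rat 4, with a ratio of 5.48, was low for all members (12.26), Ndufb5 (13.05) and Sdha (12.26). PM-L rat 3 was low for complex IV (11.76) and PM-HD rat 4 for Atp5f1a (13.43). The remaining values were Ndufb6 in MSH rat 3, at 11.68 above 11.58 to 11.59 in the others, and Atp5if1 in PM-LD rat 4, at 10.57 below 10.75 to 10.79. The part of RNA integrity in these values was not tested.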

How the results depend on the processing

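With no member called in any comparison, the alternatives could only add calls. The share of all genes passing is given further up for the Gapdh covariate, the arrays of low ratio and no fold limits. For the other settings it was not computed, so those counts of members have no background beside them. Median centering gave 2 members called in zinc sulfate against saline and 2 against MSH, and moved the members' median there to 0.1489 and 0.2025. For zinc sulfate against saline the medians were then 0.1204 (complex I), 0.1893 (III), 0.1496 (IV) and 0.1937 (V), and against MSH 0.1783, 0.3156, 0.1878 and 0.2324. Fitting only the groups compared gave 1 call in MSH. Symmetric fold limits gave 1 in zinc sulfate, and no fold limits gave 1 in PM-LD, 2 in PM-L and 1 in zinc sulfate. The Gapdh covariate gave 2 in MSH, 1 in PM-L and 1 in zinc sulfate against MSH. Without arrays of a ratio above 3 there were 1 in MSH, PM-HD, PM-L and zinc sulfate each and 9 in zinc sulfate against MSH. Without arrays of high atrial markers there was 1 in MSH and 1 in zinc sulfate. Leaving out each rat in turn gave 0 to 1 calls in MSH (1 without MSH rat 1), PM-HD (without PM-HD rat 3), PM-L (without PM-L rat 3) and zinc sulfate (without zinc sulfate rat 1 or rat 3), 0 in PM-LD, and 0 to 4 in zinc sulfate against MSH (4 without zinc sulfate rat 3).

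For the slopes, 58 members were called and 51 fell. Median centering raised the count that fell to 78 and turned slopes that had been above 0: Ndufa7 -0.2534, Ndufs4 -0.1506, Atp5if1 -0.1807, Cox8b -0.0237, Uqcr11 -0.07425 and Ndufa1 -0.03389. Without arrays of a ratio above 3, 6 were called and 6 fell, and Cox6a2 turned to 0.09524. Of the fits chosen after seeing the data, the beta-actin ratio called 33 and 30 fell, and with endothelial markers as a covariate 4 were called and 4 fell. Leaving out each rat in turn gave 52 to 58 called and 45 to 53 falling, without a share of all genes computed for these fits.

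Correlations of same-numbered deviations between groups ran from -0.26 to 0.523, with 21 of 60 pairs above 0.1. Rats of different numbers were not compared, so whether replicate numbers pair the rats was not tested. With the replicate block 0 members were called in every comparison, and 40 had a slope, of which 36 fell. No share of all genes was computed with this block. The causes of these changes were not tested. Other settings kept their side of the threshold for the counts of calls, among them both offsets, the trend and robust prior, bright probe sets alone and the mean over probe sets.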

Other observations

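Over the 24 arrays and 3916 pairs of members, the median correlation was 0.336, with pairs from -0.838 to 0.991, and after removal of the group means and of the slope on the Gapdh ratio the median was 0.352. The mean level of complex I had a correlation of 0.976 with that of complex V and 0.925 with that of complex III. Complex II had 0.969 with complex III and 0.962 with its own assembly factors, but 0.592 with complex IV. These are descriptions over arrays that share the normalization.

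The ratio measured on hexokinase, another control, had a correlation of 0.145 with that of Gapdh over the 24 arrays, whereas the ratio of beta-actin had 0.635.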
